A study of Mus musculus with 2 samples.

Results

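The 5 dopamine receptor genes Drd1, Drd2, Drd3, Drd4 and Drd5 were followed in striatal RNA of a wild-type mouse sample and of a Drd2-/- sample that lacks the D2 receptor gene, on 1 expression array per genotype. Both samples came from untreated 2-month-old male mice on a C57BL/6 background, and the striatum was dissected by hand under a microscope. The sources used here do not give how the Drd2-/- allele was made, nor the number of animals behind a sample. Members were the probe sets that the platform annotation pairs with 1 of these genes alone. This gave 6 probe sets for 4 genes, of 45101 probe sets and 18193 genes on the arrays. Drd1 and Drd4 had 2 probe sets each, and Drd2 and Drd3 had 1 each. Drd5, the second D1-class receptor, was paired with no probe set in the annotation used and was not analysed here. Signals are linear array units, scaled by the authors to a like overall level on both arrays. A probe set counted as detected where the authors' detection call was present on at least 1 array. With 1 array per genotype no difference was tested and no value has a replicate error.

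Dopamine receptors are G protein-coupled receptors of 2 classes. The D1 class (Drd1, Drd5) couples to stimulatory G proteins and raises cyclic AMP, whereas the D2 class (Drd2, Drd3, Drd4) couples to inhibitory G proteins and lowers it. In the striatum Drd1 marks the projection neurons of the direct pathway. Drd2 marks those of the indirect pathway and is also carried by cholinergic interneurons and by the terminals of midbrain dopamine neurons, where it acts as an autoreceptor.

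The start regions of the 3 receptor genes with a present call are shown because these genes gave every receptor ratio described here. The sequences are the 250 bases before the annotated start, from RefSeq on build GRCm38.p6, read 5′ to 3′ on the gene's strand, with CG dinucleotides in capitals. All 5 receptor genes matched this sequence table by symbol. Drd1 lies on the minus strand at chr13:54055659-54055908, Drd2 on the plus strand at chr9:49340153-49340402, and Drd3 on the plus strand at chr16:43761971-43762220.
Drd1: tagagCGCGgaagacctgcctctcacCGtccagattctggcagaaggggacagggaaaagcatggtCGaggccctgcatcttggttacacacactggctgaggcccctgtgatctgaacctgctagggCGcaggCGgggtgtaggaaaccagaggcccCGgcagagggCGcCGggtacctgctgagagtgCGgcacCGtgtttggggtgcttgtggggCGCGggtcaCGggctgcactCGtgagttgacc
Drd2: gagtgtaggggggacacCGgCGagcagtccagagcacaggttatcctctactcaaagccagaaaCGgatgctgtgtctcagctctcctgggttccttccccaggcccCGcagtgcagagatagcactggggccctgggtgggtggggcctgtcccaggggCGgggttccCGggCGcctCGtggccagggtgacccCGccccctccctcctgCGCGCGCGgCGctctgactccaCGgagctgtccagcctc
Drd3: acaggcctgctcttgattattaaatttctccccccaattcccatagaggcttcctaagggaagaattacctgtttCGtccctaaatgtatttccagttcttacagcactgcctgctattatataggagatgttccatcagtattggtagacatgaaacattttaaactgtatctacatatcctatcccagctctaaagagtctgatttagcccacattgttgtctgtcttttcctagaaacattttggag

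The Drd1 and Drd2 windows shown held 15 CG dinucleotides each, and 27.3% of the 32851 windows of the same length in the table held at least as many. The Drd3 window held 1, and 18.8% of windows held no more. G and C made up 64.0% of the bases for Drd1, 68.8% for Drd2 and 39.2% for Drd3, against a median of 52.4% over all windows. A GC box, the letters GGGCGG on either strand, occurred 2 times in the Drd2 window and not in the Drd1 or Drd3 window shown, and 32.7% of all windows held it. The letters TATAAA and TGACG, on either strand, were also searched and were in no window of the 5 receptor genes, against 12.4% and 17.8% of all windows. These motifs and the capitals were chosen after the windows had been seen. The windows not shown held 3 GC boxes for Drd4, 2 for Drd5 and 1 for a second annotated start of Drd1. The window of that second Drd1 start held 5 CG dinucleotides, and 55.6% of windows held at least as many. G and C made up 60.8% of its bases. These letters describe the genes only, since the arrays measure no event at a start region.

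Drd2 was the receptor with by far the greatest difference between the arrays. Its probe set, 1418950_at, designed on the Drd2 reference message, read 3234.8 units with a present call on the array labelled wild type, and 27.4 units with an absent call on the array labelled Drd2-/-. The authors' deposited table gave detection p-values of 0.000244 and 0.150 for these signals, each from the probes of a single array. The Drd2-/- value thus lay in the range of undetected probe sets: over 16302 probe sets called absent on both arrays, the median Drd2-/- signal was 22.4 units. From the signals Drd2 was 118-fold lower, a log2 ratio of -6.88. Because the dim side was not detected, this size is a bound that depends on the floor. With the floor set at 77.7 units, the 10th percentile of present signals on the Drd2-/- array, Drd2 was at least 41.6-fold lower. The authors' deposited table lists a log ratio of -6.9 (limits -8.3 to -5.4) and a call of decreased. It was not known here whether the probes lie inside the altered stretch of Drd2.

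**Figure D1:**
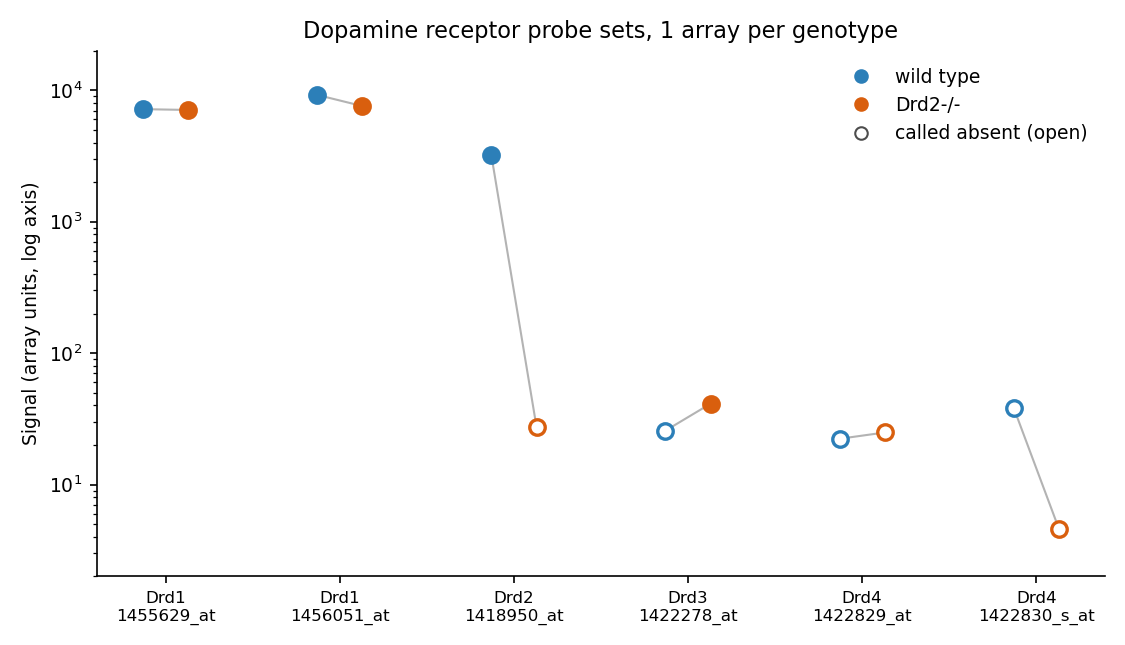
Signal of each dopamine receptor probe set (vertical log axis, array units) on the wild-type array (blue) and the Drd2-/- array (orange), 1 array each, with filled points called present and open points called absent. The Drd1 probe sets read 7087.9 to 9227.9 units over both arrays, Drd2 goes from 3234.8 to 27.4 units, and Drd3 and Drd4 lie between 4.6 and 41.3 units.

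The direction of every ratio follows the sample labels, and each log ratio or change call quoted from the authors' deposited table was turned the same way, to Drd2-/- over wild type. At all 45101 probe sets the comparison table holds the same signals under the opposite genotype names, which would reverse each sign, and the Drd2 signal is high in the array that the sample labels call wild type.

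No other detected gene came near the Drd2 ratio. It ranked 1 from the lowest among 12588 detected genes. The 5 genes closest to it by log2 ratio, the measure of likeness over these 2 arrays, were Afmid at -3.47, Slc47a1 at -3.43, Stoml3 at -2.80, Stbd1 at -2.75 and Nlrc3 at -2.64. Afmid encodes an enzyme of tryptophan breakdown and Slc47a1 an exporter of organic cations. Each of the 5 had a present call on the wild-type array, at 39.7 to 81.1 units, and an absent call on the other, at 2.0 to 8.6 units. These ratios are bounds, since the dim side was not detected, and their order depends on the floor. For Slc47a1 and Stbd1 the dim side was the lowest present signal, 5.9 units. For Afmid, Stoml3 and Nlrc3 it was their own signal, which was higher. With the 77.7-unit floor used for Drd2, Afmid was at least 1.04-fold lower and the other 4 had no ratio. The lowest ratio after Drd2 was then that of Neurod6, a transcription factor of cortical neurons, at -2.51 with present calls on both arrays. The authors' deposited table calls Slc47a1 decreased, at -4.1, and the other 4 unchanged. The log ratio of Drd2 in the authors' deposited table was the lowest of 45037 probe sets, and the next lowest was -6.0. Over 1000 probe sets present on both arrays and nearest to Drd2 in mean signal (276 to 321 units), the log2 ratios ran from -1.27 upward and the central 95% lay between -0.57 and 1.46. Drd2 was present on 1 array only and had this mean signal on neither. That range therefore describes the other probe sets and does not test the Drd2 ratio.

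**Figure D2:**
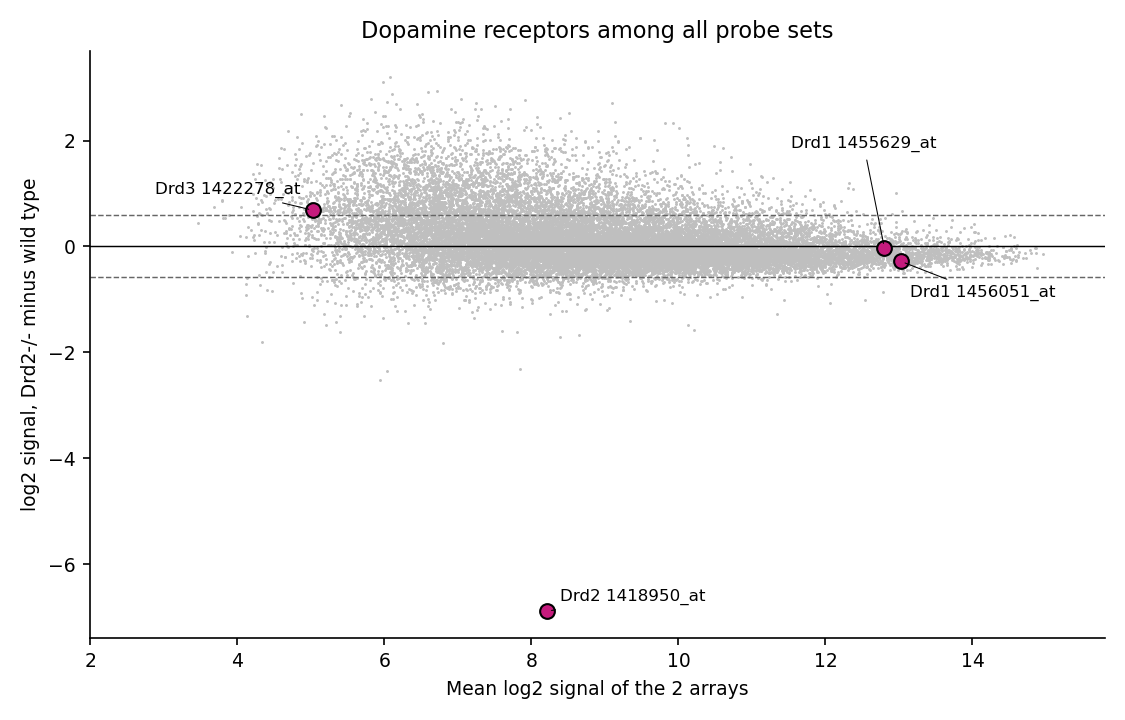
Difference in log2 signal, Drd2-/- minus wild type (vertical), against mean log2 signal (horizontal) for probe sets present on both arrays (grey) and for the 4 detected dopamine receptor probe sets (coloured), with dashed lines at 1.5-fold. Drd2 at -6.88 lies below the grey points, while the Drd1 probe sets and Drd3 lie among grey points of like signal.

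Drd1, the D1-class receptor of direct-pathway neurons, was bright on both arrays and differed little. Probe set 1456051_at read 9227.9 units in wild type and 7584.9 in Drd2-/-, a log2 ratio of -0.28. Probe set 1455629_at read 7186.9 and 7087.9 units, a log2 ratio of -0.02. Both were called present on both arrays and both were designed on expressed sequence tags. The first was lower in Drd2-/- and the second nearly equal, so the probe sets for Drd1 do not give the same size. After median, quantile or intensity-dependent scaling 1455629_at turned to between 0.05 and 0.10, whereas 1456051_at stayed below 0, between -0.21 and -0.16. Both had a log ratio of -0.3 and an unchanged call in the authors' deposited table (limits -0.4 to -0.3 for 1456051_at and -0.4 to -0.1 for 1455629_at).

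Both Drd1 ratios lay within the central 95% of ratios of probe sets as bright. Of 1000 probe sets nearest in mean signal to 1456051_at, 15.3% had a lower log2 ratio, and the central 95% lay between -0.43 and 0.35. Of 1000 nearest to 1455629_at, 76.1% had a lower ratio, and the central 95% lay between -0.43 and 0.40. Among all 12588 detected genes, 19.5% had a ratio below the -0.28 that represents Drd1. In bulk tissue, fewer cells of a type and less RNA per cell cannot be told apart. The Drd2-/- array was also lower in markers of cortical excitatory neurons, with a median log2 ratio of -1.04 over 6 detected genes of which 5 were below 0, and their part in the Drd1 values was not tested.

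Drd3, the D2-class receptor best known from the ventral striatum and the islands of Calleja, was near background. Its probe set, 1422278_at, read 25.7 units and was called absent in wild type, and read 41.3 units and was called present in Drd2-/-. The authors' deposited table gave detection p-values of 0.0806 and 0.0376. The highest p called present on these arrays was 0.0461 and the lowest called absent was 0.0652, so the Drd3 values lay on either side of the boundary and close to it. From the signals Drd3 was 1.61-fold higher in Drd2-/-, a bound of 0.68 on the log2 scale. With the floor at the 10th percentile of present signals in wild type, 62.2 units, the bound was 0. Its log ratio in the authors' deposited table was 1.2 (limits -0.1 to 2.5), called unchanged.

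The change of call in Drd3 was shared by many dim probe sets. In all, 1726 of 45037 probe sets, 3.83%, were absent in wild type and present in Drd2-/-, and 1301, 2.89%, the reverse. Of 746 probe sets present on both arrays and nearest to Drd3 in mean signal (11.1 to 48.3 units), 51.6% were at least 1.5-fold apart. Their central 95% ran from -0.88 to 1.93, their median was 0.50, and 61.1% lay below the Drd3 ratio. Drd3 itself was present on 1 array only.

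Drd4, the D2-class receptor known from retina and cortex, was detected on neither array. Probe set 1422829_at read 22.3 units in wild type and 24.9 in Drd2-/-. Probe set 1422830_s_at, whose suffix marks probes shared among transcripts, read 38.4 and 4.6 units. Detection p-values in the authors' deposited table were 0.534 and 0.726 for 1422829_at, and 0.601 and 0.944 for 1422830_s_at. The probe sets point in opposite directions, and no fold is given because neither signal was detected. The authors' deposited table gives 1422829_at a log ratio of 0.3 and 1422830_s_at one of -3.3, and calls both unchanged. Signals as far apart as those of 1422830_s_at were found at 6.23% of the 16302 probe sets absent on both arrays, and at 1.42% with the Drd2-/- signal the lower.

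**Figure D3:**
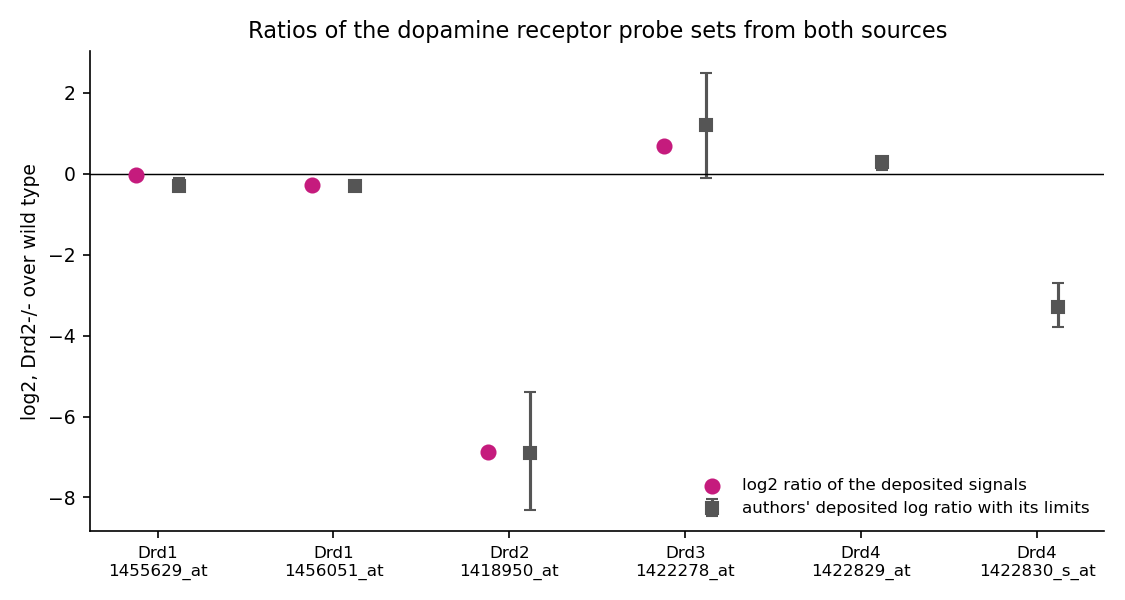
Log2 ratio, Drd2-/- over wild type, of each dopamine receptor probe set from the deposited signals (round points, not drawn for Drd4, which was absent on both arrays) and from the authors' deposited table (squares, with bars for its lower and upper limits). The limits of Drd2 run from -8.3 to -5.4 and those of Drd3 from -0.1 to 2.5.

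Of the 6 receptor probe sets, 2 were present on both arrays, 2 on 1 array and 2 on neither. Among the 4 detected, Drd2 was at least 1.5-fold lower, where 3.22% of detected probe sets were as much lower, and Drd3 at least 1.5-fold higher, where 19.2% were. Either direction together held 22.4% of detected probe sets. At 2-fold only Drd2 stayed among the receptors, and of all detected probe sets 10.5% were that far apart, 9.72% higher and 0.791% lower. Of the 6 receptor probe sets, Drd2 alone had a change call other than unchanged in the authors' deposited table, against 13.1% of all probe sets, and 2.48% of all were called decreased.

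Other receptors for biogenic amines and acetylcholine served as the nearest relatives of the family. Of 21 such genes with a probe set of their own, 11 were detected, and none of these was at least 1.5-fold apart, against 12.6% of all detected genes. Their log2 ratios ran from -0.47 to 0.37 with a median of -0.05. The median over all detected genes was -0.06. After quantile or intensity-dependent scaling 1 of the 11 was at least 1.5-fold lower.

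Genes of the D1-class pathway had a median ratio close to that of all genes. Each gene in this and the following lists was represented by its brightest probe set. Dimmer probe sets of the same genes that were at least 1.5-fold apart are counted or named as well. The list of 9, from the stimulatory G protein subunit Gnal through the adenylyl cyclase Adcy5 to the striatal phosphatase inhibitor Ppp1r1b, was detected in full, and none was at least 1.5-fold apart, against 12.6% of all detected genes. Their median log2 ratio was -0.10, with a range from -0.47 to 0.23, and turned to 0.02 after quantile or intensity-dependent scaling. Of 8 other detected probe sets of these genes 2 were at least 1.5-fold higher, 1 of Adcy5 at 0.80 and 1 of Gnal at 0.98, where 19.2% of all detected probe sets were as much higher.

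The D2-class pathway list of 12 inhibitory G protein, potassium channel, arrestin and kinase genes was also detected in full, with a median log2 ratio of -0.16. In it Kcnj3 was higher by 1.5-fold or more and Kcnj9 lower, against 9.18% and 3.38% of all detected genes. Both encode subunits of the inwardly rectifying potassium channels that open below D2-class receptors. Kcnj3 read 183.1 units in wild type and 278.9 in Drd2-/-, a log2 ratio of 0.61, and its other 3 detected probe sets lay between 0.56 and 0.99. Kcnj9 read 243.9 and 152.0 units, a log2 ratio of -0.68, but its other 2 detected probe sets gave -0.22 and 0.54. The authors' deposited table calls Kcnj3 increased at 0.4 and Kcnj9 unchanged at -0.4. Over the scalings and with 32 units added, Kcnj3 lay between 0.40 and 0.68 and Kcnj9 between -0.92 and -0.58, so both crossed the 1.5-fold line. Of 19 other detected probe sets in the list 4 were at least 1.5-fold higher and 1 lower. Over all detected probe sets the shares were 19.2% and 3.22%. Gsk3b at 1.58 was the highest of the 19 and Gnao1 at -0.88 the lowest. Both genes were less than 1.5-fold apart by their brightest probe set.

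Genes for proteins that bind, sort or desensitise dopamine receptors showed no difference of that size by their brightest probe sets. All 19 measured genes of the list, among them the receptor kinases Grk3, Grk5 and Grk6, the arrestin Arrb1 and the D1 receptor partner Caly, were detected, and none was at least 1.5-fold apart, against 12.6% of all detected genes. Their median log2 ratio was -0.15, and 15 of 19 lay below 0. Over all detected genes 7186 of 12588 lay below 0. After median centring 1 of the 19, the filament crosslinker Flna, was at least 1.5-fold higher. Of 22 other detected probe sets of these genes 3 were at least 1.5-fold higher and none lower. Of all detected probe sets 19.2% were as much higher and 3.22% as much lower. The 3 were 2 of Rgs9, the striatal G protein regulator, at 0.84 and 1.40, and 1 of Nsf, the vesicle fusion ATPase, at 1.21.

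**Figure D4:**
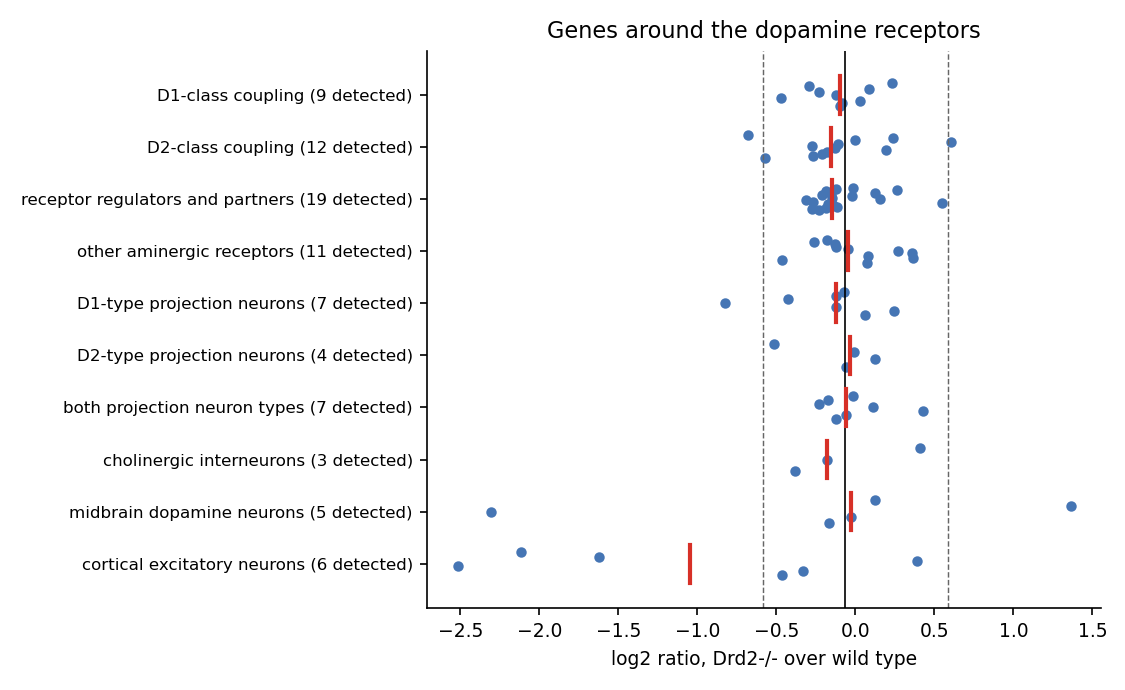
Log2 ratio, Drd2-/- over wild type (horizontal), of the brightest probe set of each detected gene (points) in lists of dopamine receptor pathway genes, related receptors and cell markers, with the list median in red, the median of all detected genes as a black line and dashed lines at 1.5-fold. The pathway and projection neuron medians lie between -0.16 and -0.03, and the cortical median is -1.04.

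The cells that carry these receptors were followed by their markers. Of 8 markers of D1-type projection neurons 7 were detected, with a median log2 ratio of -0.12 and 1 gene at least 1.5-fold lower, against 3.38% of all detected genes. This was Pdyn, the dynorphin precursor, which read 808.2 units in wild type and 456.8 in Drd2-/-, a log2 ratio of -0.82, given as -0.5 and unchanged in the authors' deposited table. Tac1, the substance P precursor of the same cells, read 12970.8 and 12339.9 units, a log2 ratio of -0.07 that turned to 0.06 at the highest of the scalings. The other detected Tac1 probe set, dim at 19.6 units and absent in wild type and at 42.5 units and present in Drd2-/-, gave a bound of 1.12. The Drd1 probe set 1456051_at, at -0.28, lay between Pdyn and the bright Tac1 probe set. The other, 1455629_at, lay above both, at -0.02.

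For D2-type neurons 4 of 7 listed markers had a probe set of their own, and all 4 were detected, none at least 1.5-fold apart, against 12.6% of all detected genes. Their median log2 ratio was -0.03. Penk, the enkephalin precursor of the neurons that carry Drd2, read 21892.7 units in wild type and 21745.0 in Drd2-/-, a log2 ratio of -0.01, while Drd2 in the same RNA was at -6.88. The summed signal of the 4 markers came to 30284.6 units for wild type and 29786.1 for Drd2-/-, and Penk made up most of either sum. Plxdc1 had the lowest ratio of the 4, at -0.51, with 505.3 units in wild type and 353.7 in Drd2-/-. The authors' deposited table calls Plxdc1 marginally decreased, at -0.5. Under the scalings the D2-type median turned to between 0.04 and 0.09, and Plxdc1 was the member that passed 1.5-fold, lower, after quantile scaling. All 7 measured markers shared by both projection neuron types were detected, with a median log2 ratio of -0.06 and none at least 1.5-fold apart by the brightest probe set. Of their 17 other detected probe sets 5 were at least 1.5-fold higher, against 19.2% of all detected probe sets, and none lower. The highest of each gene were Foxp1 at 1.63, Rgs9 at 1.40 and Pde10a at 0.61, each called increased in the authors' deposited table.

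Markers of the other cells with dopamine receptors were detected in part. Of the cholinergic interneuron markers, Chat, the acetylcholine-synthesizing enzyme, was called absent on both arrays, and Slc18a3, the vesicular acetylcholine transporter, read 296.2 and 262.0 units, and the transcription factor Lhx8 read 570.5 and 438.5. Slc5a7, also a cholinergic marker, was higher instead, at 188.2 units in wild type and 249.8 in Drd2-/-. Its log2 ratio was 0.41, and the authors' deposited table calls it increased. The 3 detected of 4 measured cholinergic markers had a median log2 ratio of -0.18, and none was at least 1.5-fold apart. Of 10 markers of midbrain dopamine neurons 5 were detected. The dopamine transporter Slc6a3 and the transcription factors Pitx3, En1, Foxa1 and Foxa2 were called absent on both arrays, Th read 206.1 and 224.5 units, Ddc read 520.4 and 510.1, and the aldehyde dehydrogenase Aldh1a1 read 2185.8 and 1945.4. Slc18a2, the vesicular monoamine transporter, was at least 1.5-fold higher at 1.36 and the nuclear receptor Nr4a2 lower at -2.31, against 9.18% and 3.38% of all detected genes. Which cells gave the signals of these 2 genes was not tested. Slc18a2 was dim, at 53.1 units in wild type and 136.5 in Drd2-/-. The wild-type value lay below the 10th percentile of present signals on that array, 62.2 units. The authors' deposited table gives Slc18a2 a log ratio of 0.9 and a call of increased. The other 3 detected probe sets of Nr4a2 lay between -1.88 and -1.14.

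Of markers of adjoining cortex, 3 were lower in the Drd2-/- array. Of 8 measured cortical excitatory neuron genes 6 were detected, with a median log2 ratio of -1.04, and 3 were at least 1.5-fold lower, against 3.38% of all detected genes. They were Neurod6 at -2.51, Slc17a7 at -1.62 and Tbr1 at -2.12, a bound against an absent call that came to -0.97 with the 77.7-unit floor. Rorb was higher, at 0.39, with its other 2 probe sets at 0.20 and 0.26. Fezf2 at -0.46 and Neurod2 at -0.33 were also bounds against absent calls, and Fezf2 came to -0.08 with the 77.7-unit floor. The median of the 6 detected genes stayed between -1.36 and -0.87 under the scalings and with 32 units added to both arrays. The higher floor was not part of that range. The 8 measured genes together summed to 1770.9 units for wild type and 1207.6 for Drd2-/-. These sums include Cux2, at 408.8 and 361.7 units, and Emx1, at 103.7 and 100.2, by probe sets called absent on both arrays. A dimmer Cux2 probe set was present on both arrays, at 322.2 units in wild type and 207.8 in Drd2-/-. Its log2 ratio was -0.63, at least 1.5-fold lower, against 3.22% of all detected probe sets. The authors' deposited table calls that probe set unchanged, at -0.4. Of 6 thalamic markers, all detected, 2 were at least 1.5-fold higher, Rora at 0.75 and Gbx2 at 0.58 from a dim signal, and 2 lower, Slc17a6 at -2.27 and Ramp3 at -0.75, against 9.18% and 3.38% of all detected genes. Slc17a6 read 58.5 units and present in wild type and 12.1 units and absent in Drd2-/-, so its ratio is a bound, which ran from -2.79 to -1.04 over the scalings and with 32 units added, and the 77.7-unit floor left no ratio. The authors' deposited table calls Slc17a6 unchanged. The other 5 detected probe sets of Rora lay between 0.39 and 0.96. Of 7 dimmer thalamic probe sets 3, all of Rora, were at least 1.5-fold higher, against 19.2% of all detected probe sets, and none lower. Gbx2 was called absent in wild type at 23.8 units and present in Drd2-/- at 35.7, so its ratio is also a bound. It fell to 0.08 at the lowest of the scalings, and to 0 with the floor at 62.2 units. The authors' deposited table calls Gbx2 unchanged at 0.3, Ramp3 unchanged at -0.3 and Rora increased at 1. Among 6 astrocyte, 6 microglial, 5 oligodendrocyte and 4 endothelial markers detected, none was at least 1.5-fold apart by the brightest probe set, though after quantile scaling 2 endothelial markers were. Among their dimmer probe sets, 4 of 16 for astrocytes were at least 1.5-fold higher, up to 1.84 for Gja1 and 1.85 for Slc1a3. For endothelium it was 1 of 3, Flt1 at 0.64. Of all detected probe sets 19.2% were as much higher. The authors' deposited table calls these Gja1, Slc1a3 and Flt1 probe sets unchanged, with Gja1 at 0.2. That of Slc1a3 was dim, at 15.0 units in wild type and 54.0 in Drd2-/-. None of 3 dimmer microglial and 12 dimmer oligodendrocyte probe sets was 1.5-fold apart. By the brightest probe set the median log2 ratios were -0.03 for astrocytes, -0.15 for microglia, -0.31 for oligodendrocytes and -0.25 for endothelium. Over all detected genes it was -0.06. All 5 oligodendrocyte markers and their 12 dimmer probe sets lay below 0. Mbp and Mobp turned above 0 at the highest of the scalings. The authors' deposited table calls Cnp, Mag, Cx3cr1 and Gfap decreased, and Aqp4 and P2ry12 increased.

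The nearest measured genes on either side of Drd2 in RefSeq order (assembly GRCm38.p6) were Tmprss5 and Ttc12. Tmprss5 was called present in wild type at 112.4 units and marginal in Drd2-/- at 120.2 units. Ttc12 was called absent on both arrays, at 149.5 and 106.6 units. Their log ratios in the authors' deposited table were -0.4 and -0.6, both called unchanged.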

How the data were processed

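Per the file headers and the labels, the authors deposited for each probe set a scaled, linear signal intensity on either array, its detection call and p-value, and a log ratio (log2) with limits and a change call. The change call and the detection p-value compare probes within these arrays, not animals. The signals came from the value table by sample label. Detection and change calls were joined to the array with the identical signal, since the comparison table names the genotypes the other way round, and its log2 ratios were turned to Drd2-/- over wild type. The labels give Trizol RNA and biotin-labelled cRNA by the Affymetrix protocol, and name no software.

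Of 45037 probe sets that are not controls, 34945 were paired with 1 gene in the platform annotation. A gene was represented by the brightest of its probe sets (mean of both log2 signals). Signals below 0.1 were set to 0.1. Where 1 array was called present, the dim side was set to the higher of its own signal and that array's lowest present signal (5.0 units in wild type, 5.9 in Drd2-/-). Absent on both arrays gave no ratio, and marginal counted as not present. Present calls made up 57.9% of probe sets in wild type and 58.7% in Drd2-/-. The number of arrays limits the precision. Ratios at like brightness used the 500 nearest probe sets on each side. Scalings were median centring, quantile normalization and a lowess curve (span 0.2); 32 units were also added to both arrays. The ratio code was tested on simulated data. List genes were matched by Entrez number through RefSeq symbols. Comparison of the receptor proteins was planned and not run. Python 3.11.15, numpy 2.4.6, pandas 2.3.3, statsmodels 0.14.6 and matplotlib 3.10.9 were used.

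The members and lists were chosen with earlier results of these data known. Named were all receptor probe sets, up to 4 detected genes at least 1.5-fold apart per list, the first 2 genes of each cell type list where they bear on a receptor, the 5 genes most like Drd2 and its nearest measured neighbours. Other list genes named as examples, those named as not detected, and Sfxn1, were chosen after their values were seen.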

Additional observations from a re-analysis of the deposited data

How the results depend on the processing

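A ratio was said to move when it changed by more than the mean distance between the log ratio and its limits in the authors' deposited table. The log2 ratio of Drd2 stayed between -7.09 and -5.38 over 8 alternatives, and moved where the floor was the 10th percentile of present signals (-5.38). That of Drd1 was -0.28, and moved to -0.16 with intensity-dependent centring, -0.21 with median centring, -0.15 as the median of its probe sets and -0.16 with quantile normalization. That of Drd3 stayed within its wide limits, from 0 with the higher floor to 1.2 in the authors' deposited table, and was 0.35 with 32 units added, 0.19 with intensity-dependent centring and 0.22 with quantile normalization. The number of receptor probe sets at least 1.5-fold apart was 2, and 1 with the 2-fold threshold, with 32 units added, with intensity-dependent centring and with quantile normalization, 0 when present calls on both arrays were required, which leaves out Drd2, and 3 with no filter on detection, which adds the Drd4 probe set 1422830_s_at. Why the scalings move Drd3 was not tested. No paired analysis was possible because each genotype has 1 array. For Drd4, absent on both arrays, the scalings give no ratio, and the unfiltered signal differences (0.16 and -3.06) and the log ratios in the authors' deposited table (0.3 and -3.3) compare undetected signals. Detection limits Drd3 and Drd4, whose signals lie below the 10th percentile of present signals on their array.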

Other observations

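The gene next to Drd1 in RefSeq order, Sfxn1, a mitochondrial serine transporter also listed as a marker of D1-type neurons, read 4535.5 units in wild type and 3378.0 in Drd2-/-, a log2 ratio of -0.43. Its other detected probe set gave -0.41. Both are called decreased, at -0.5 and -0.4, in the authors' deposited table after turning it to Drd2-/- over wild type. Drd1 itself was called unchanged there.

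Probe set 1457684_at, annotated to 1700037H04Rik and described in the deposited table as designed on a tag moderately similar to rat dopamine receptor D1, was called present on both arrays. It read 61.7 units in wild type and 63.1 in Drd2-/-, a difference of 0.03 on the log2 scale. It was not counted as a Drd1 probe set, since the annotation does not pair it with that gene.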
